A study of Rattus norvegicus with 4 samples.

Results

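The probe sets described here are those that carry the gene symbols of the adrenomedullin and endothelin system, Adm, Edn1, Ednra, Ednrb and Ece1, on an Affymetrix rat genome array (RG_U34A). Of the 5 genes looked for, 3 had a probe set named with their symbol (Adm, Edn1 and Ece1), with 4 probe sets among 8799 and 3 genes among 4736. No probe set named for either endothelin receptor gene, Ednra or Ednrb, was found, and these 2 genes were not analysed here. RNA of the left ventricle of rats was hybridised, with 1 array for each of 4 groups. SD control was labelled Sprague Dawley. The dTGR group was rats that carry transgenes for human renin and human angiotensinogen, which the labels describe as hypertensive, with heart hypertrophy and proteinuria, and dying after 7 weeks. The dTGR losartan group carries the name of losartan, a drug that blocks AT1, the main receptor of angiotensin II. The fourth array was labelled terminal heart failure, with no genotype in its own title, and the text on the transgenic rat stands with every sample, SD control included. The sources used here give no transgene promoter, dose or age and do not say how many animals an array represents.

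Adrenomedullin is a peptide that widens blood vessels, made by vascular cells, cardiomyocytes and macrophages, and it acts on a receptor built from the calcitonin receptor-like receptor and a receptor activity-modifying protein, which raises cyclic AMP. Endothelin 1 is its functional opposite, a strong constrictor and growth signal for cardiomyocytes, cut from an inactive precursor by endothelin-converting enzyme 1 and sensed by the ETA and ETB receptors, which couple to Gq. Both peptide genes are known to respond to stretch, hypoxia and angiotensin II.

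Intensities below are scaled to a common trimmed mean, and a floor of 26.0, the 40th percentile of all values, is the lower limit used. With 1 array per group there are no replicates, so a difference is a size with no test. The spread at hand is the disagreement between probe sets of the same gene within an array pair. It holds no variation between animals or RNA preparations, so it does not give the error of a group difference. Adm, with 1 probe set, has no such spread of its own. The SD of that disagreement was 0.51 to 0.60 on the log2 scale over the 6 array pairs. The arrays differed in handling as well as in group. SD control and dTGR shared a chip lot, and dTGR losartan and terminal heart failure shared another. The terminal array had a separate run day, and dTGR was the 1 array under another fluidics protocol. In terminal heart failure against dTGR, 2 arrays that differ in lot, day and protocol, 11.8% of genes were at least 2-fold lower. Over the 6 array pairs, genes at least 2-fold different either way made up 13.6% of those tested for dTGR against SD control, 14.8% for terminal heart failure against SD control, 19.5% against dTGR and 14.8% against dTGR losartan, 15.4% for dTGR losartan against dTGR and 7.10% for dTGR losartan against SD control. All 9 cardiomyocyte markers on the array were above the floor in each group, and of the 3 atrial markers Nr2f2 lay under it on all arrays, Myl4 on all but the terminal array and Myl7 on none. The summed intensity of the atrial markers was 109.98 in SD control, 124 in dTGR, 111 in dTGR losartan and 237 in terminal heart failure. These sums include values under the floor. Myl7, the 1 marker above the floor on all arrays, had a log2 difference of 0.20 for dTGR against SD control. Its difference was -0.86 for dTGR losartan against dTGR and -0.67 for dTGR losartan against SD control. In terminal heart failure it was at least 2-fold higher than in dTGR losartan, as were 7.44% of all genes. The part of atrial tissue in the Adm values was not tested.

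Adm was highest in terminal heart failure, intermediate in dTGR, and lowest in dTGR losartan and SD control. Its probe set, D15069_s_at, had an intensity of 53.2 in SD control, 107 in dTGR, 60.7 in dTGR losartan and 239 in terminal heart failure, all above the floor. The dTGR losartan and SD control values lay close together, 1.14-fold apart, a log2 difference of 0.19 that is smaller than the probe set SD of 0.52 for that pair.

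**Figure D1:**
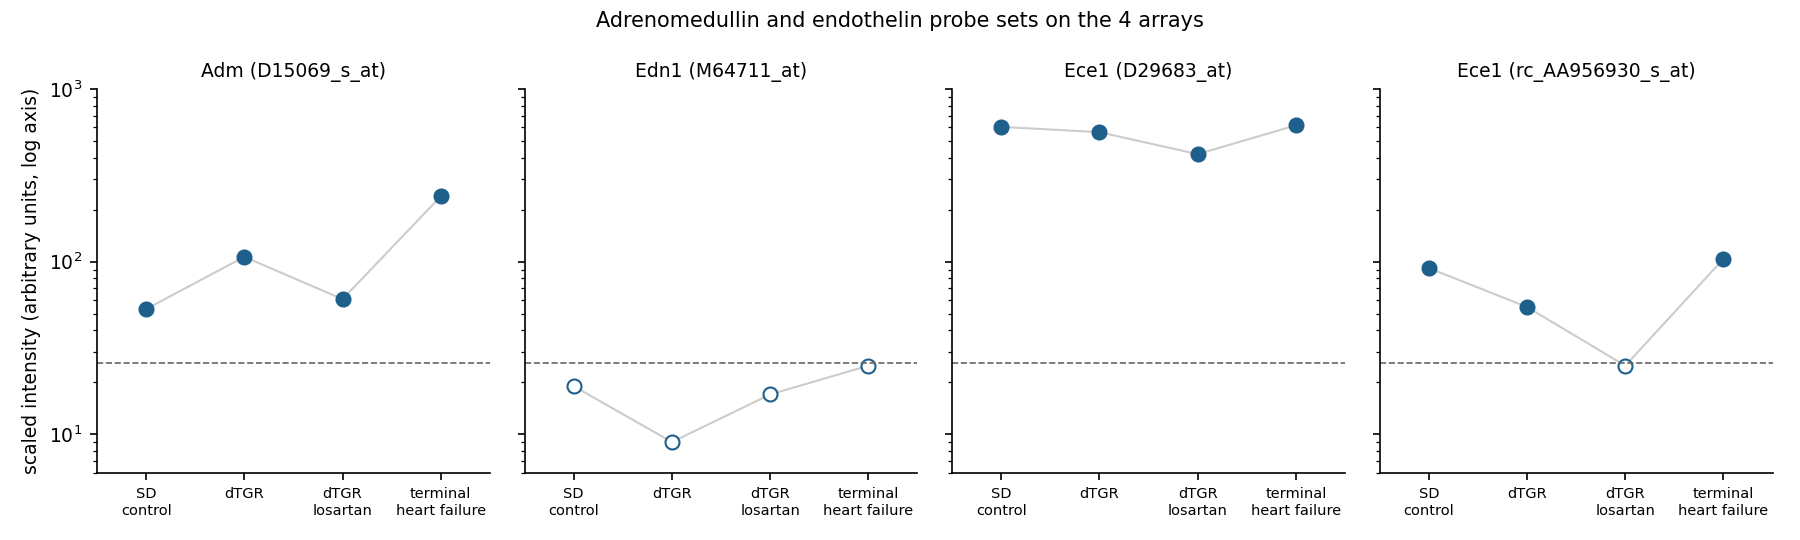
Scaled intensity (log axis) of the 4 probe sets on the 4 arrays, 1 point per array; open points lie under the floor of 26.0 (dashed line) and grey lines only guide the eye. Adm runs from 53.2 in SD control to 239 in terminal heart failure, Edn1 stays under the floor, and both Ece1 probe sets are lowest in dTGR losartan.

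The comparison of terminal heart failure with SD control asked how the failing ventricle differs from the normal one. Adm was 4.49-fold higher in terminal heart failure, a log2 difference of 2.17, or 4.24 probe set SDs. It ranked 42 from the highest of 3371 genes that exceeded the floor on 1 or both of these arrays, of which 6.38% were at least 2-fold higher. Against dTGR losartan, the array that shared its chip lot, the terminal array was 3.94-fold higher for Adm (log2 difference 1.98, rank 45 of 3401, where 7.44% of genes were at least 2-fold higher). Against dTGR, the terminal array was 2.24-fold higher (log2 difference 1.16, rank 202 of 3604, where 7.69% were at least 2-fold higher). The terminal array was thus above each of the other 3 arrays by at least 2-fold, and it remained so under each of the 7 or 8 processing alternatives that gave a value. These 3 comparisons share the terminal array and are not independent. In a piece of ventricle, more cells that express a gene and more RNA per cell cannot be told apart.

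The comparison of dTGR with SD control asked how the transgenic, hypertensive ventricle differs from the normal one. Adm was 2.005-fold higher in dTGR (log2 difference 1.003, 1.89 probe set SDs), at the threshold. It ranked 275 of 3614 genes, of which 7.69% were at least 2-fold higher and 5.87% lower. The difference stayed positive under all 7 alternatives, but in 5 of them it did not reach 2-fold. It was 1.697-fold with arrays scaled to the same median. With the floor at the 60th percentile (66.2) it was at least 1.61-fold, a bound since SD control lay under that floor. This pair shares a chip lot and differs in fluidics protocol. It has no array in common with terminal heart failure against dTGR losartan, where Adm was 3.94-fold higher.

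The comparison of dTGR losartan with dTGR asked what blocking the angiotensin receptor leaves of that difference. Adm was 1.76-fold lower in dTGR losartan (log2 difference -0.81, 1.37 probe set SDs in size), short of the 2-fold threshold. The arrays of this pair differ in chip lot and fluidics protocol, so losartan and handling cannot be told apart. In this pair 9.50% of 3644 genes were at least 2-fold lower and 5.90% higher, and Adm ranked 519 from the lowest. Under the alternatives the difference ranged from -0.81 to -0.58 on the log2 scale. Against SD control, dTGR losartan differed by 0.19, with 2.24% of 3394 genes at least 2-fold higher.

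**Figure D2:**
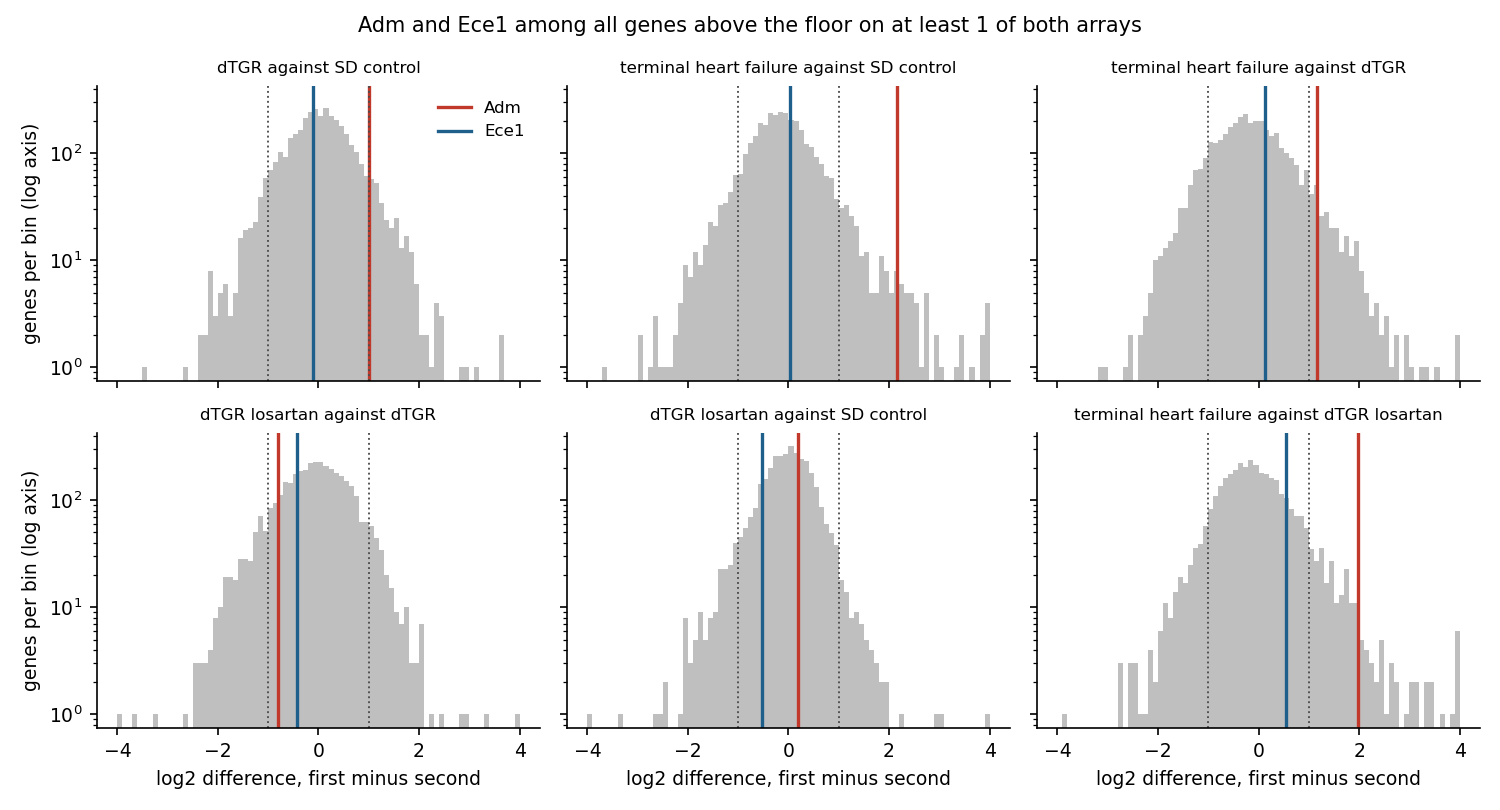
Histograms of the log2 difference (first group minus second) over all genes that exceeded the floor on 1 or both arrays, for the 6 array pairs, with gene counts on a log axis and differences beyond 4 drawn at 4; the red line is Adm, the blue line Ece1 and dotted lines mark 2-fold. Adm lies in the upper tail in both pairs of terminal heart failure with SD control (2.17) and dTGR losartan (1.98), while Ece1 stays inside the 2-fold lines.

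Edn1, the precursor of endothelin 1, was not measurable above the floor. Its single probe set, M64711_at, had an intensity of 19.0 in SD control, 9.04 in dTGR, 17.0 in dTGR losartan and 25.01 in terminal heart failure, all under 26.0, so no fold and no order is given. In the deposited table most values from 1 to under 32 (13625 of 15281) have a first decimal of 0 and a second from 1 to 9, as if a spreadsheet had rewritten them as day and month, a change of under 1 unit at most, and all 4 Edn1 values lie in that range. At a lower floor (11.02, the 25th percentile) the dTGR value still lay under it.

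The sequence upstream of the RefSeq transcript start is shown for both peptide genes, since Adm was the member that differed most between arrays and Edn1 its counterpart under the floor. Each line gives the 250 bases before the start in build GRCr8, 5′ to 3′ on the strand of the gene, for Adm chr1:174179950-174180199 on the plus strand and for Edn1 chr17:22666688-22666937 on the minus strand. Capitals mark letters that match, on either strand, any of 5 motifs: the hypoxia response cores ACGTG and GCGTG, the AP-1 motif TGANTCA, the GATA motif GATAA and the TATA box TATAAA.
Adm: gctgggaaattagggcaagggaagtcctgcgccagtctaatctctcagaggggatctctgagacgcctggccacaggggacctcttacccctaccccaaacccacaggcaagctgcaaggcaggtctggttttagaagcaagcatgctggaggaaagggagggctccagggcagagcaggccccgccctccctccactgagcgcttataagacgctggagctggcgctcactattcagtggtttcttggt
Edn1: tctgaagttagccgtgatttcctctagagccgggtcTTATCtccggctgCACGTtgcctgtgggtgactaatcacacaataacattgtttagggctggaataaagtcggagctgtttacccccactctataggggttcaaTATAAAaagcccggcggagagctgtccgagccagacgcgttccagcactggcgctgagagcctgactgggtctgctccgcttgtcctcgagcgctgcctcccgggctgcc
The Adm window held 0 matches to the 5 motifs. The Edn1 window held 1 match each to GATAA (minus strand, -214 to -210 from the start), ACGTG (minus strand, -201 to -197) and TATAAA (plus strand, -110 to -105). Among 33469 promoter windows of that length, 16.6% held ACGTG, 25.9% GCGTG, 6.34% TGANTCA, 23.5% GATAA and 12.9% TATAAA. These are matches of letters and not binding sites, and binding was not measured.

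Ece1, the enzyme that releases active endothelin 1, differed little between SD control, dTGR and terminal heart failure on its brighter probe set. D29683_at had an intensity of 604 in SD control, 562 in dTGR, 419.6 in dTGR losartan and 616 in terminal heart failure. The dTGR and terminal values lay within 1.10-fold of each other and of SD control, log2 differences of -0.10, 0.03 and 0.13 that are under the probe set SD. The dTGR losartan value was the lowest, 1.44-fold under SD control (-0.52), 1.34-fold under dTGR (-0.42) and 1.47-fold under terminal heart failure, none of which reached 2-fold (4.86%, 9.50% and 7.44% of all genes were past 2-fold in the same direction, and 7.35% were lower in terminal heart failure than in dTGR losartan).

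The other Ece1 probe set, rc_AA956930_s_at, gave the same order of the 4 arrays with wider gaps. It had an intensity of 91.9 in SD control, 54.7 in dTGR, 25 in dTGR losartan and 104 in terminal heart failure, with the losartan value under the floor. On it dTGR losartan was at least 3.53-fold lower than SD control and at least 2.10-fold lower than dTGR, where 4.86% and 9.50% of genes were at least 2-fold lower by their brighter probe set. Terminal heart failure and SD control differed by 1.13-fold on this probe set. Losartan was thus lowest on both Ece1 probe sets, and the difference passed 2-fold on 1 of them. The sign for dTGR against SD control was lower on both, by 1.07-fold and 1.68-fold, and turned to 1.07-fold higher for the brighter probe set after cyclic loess.

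The losartan array was also lowest on a probe set of Furin and of Pam, while another probe set of the same gene was not. These examples were chosen after their values were seen. The other Pam probe sets, and the share of all genes with such a probe set, are not given here. For Furin, a protease that cuts many prohormones, X55660_at had an intensity of 241 in SD control, 222 in dTGR, 50.8 in dTGR losartan and 207 in terminal heart failure. X55660_g_at of the same gene had 293, 230.2, 315 and 297 in the same order of arrays. For Pam, the enzyme that adds the amide that adrenomedullin needs for activity, E03428cds_s_at had 2996, 4464, 1166 and 3933, against 5211, 8712, 6790 and 6842 for rc_AA891068_f_at, the brightest of its 7 probe sets. The ratio of 3' to 5' signal of Gapdh, a measure of RNA or labelling quality, was 2.17 on the losartan array, 1.73 on dTGR, 1.35 on SD control and 1.28 on the terminal array. That of actin was 2.26 on the losartan array, close to 2.07 on dTGR, against 1.46 on SD control and 1.63 on the terminal array. The part of RNA quality in the Ece1 values was not tested.

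**Figure D3:**
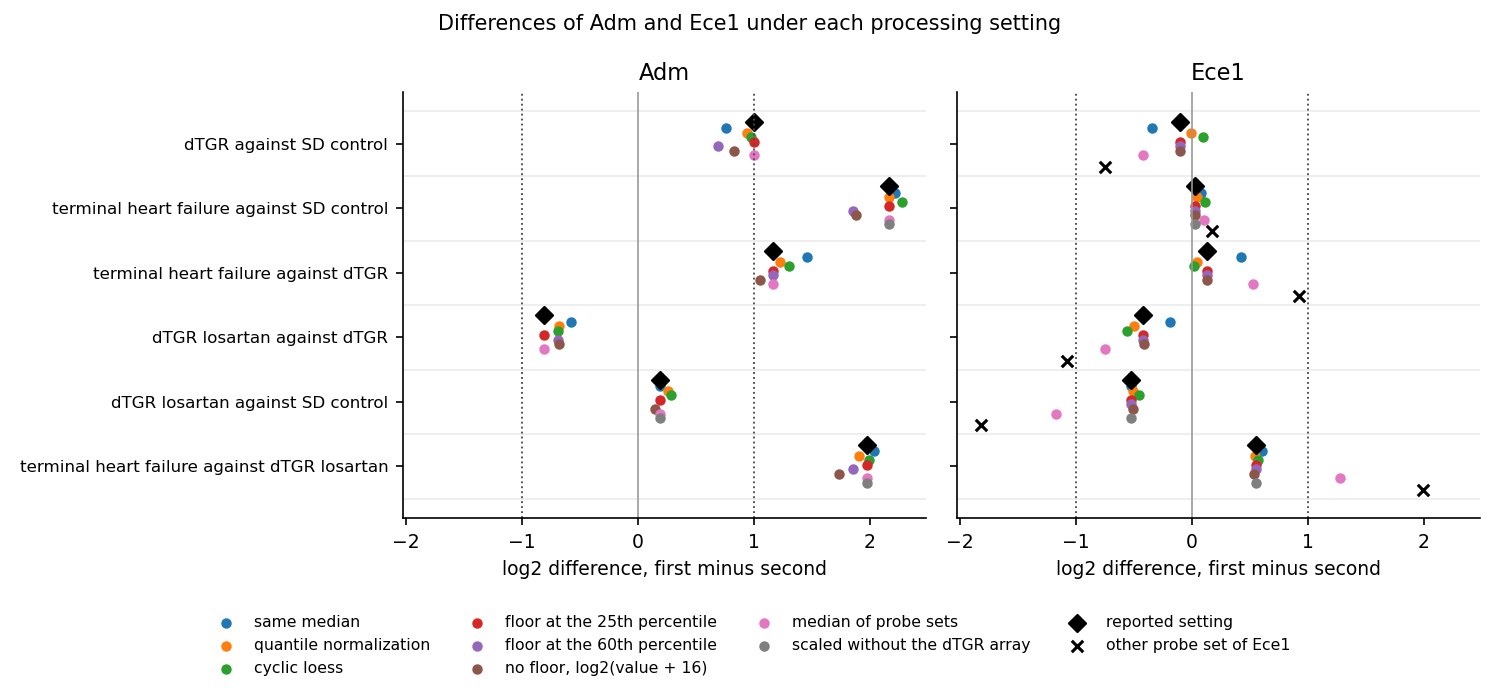
Log2 differences of Adm and Ece1 (first group minus second) in the 6 array pairs under the reported setting (diamonds), each processing alternative (coloured points) and, for Ece1, its other probe set (crosses); dotted lines mark 2-fold. Adm keeps its sign in every pair shown and crosses the 2-fold line for dTGR against SD control, while Ece1 passes 2-fold where the other probe set, or the median of both, stands for it.

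The other genes of the pathway were near the level of SD control or near the floor in most cases. Of 24 further ligands, receptors, and maturing or degrading enzymes, 16 were on the array and 14 were above the floor on at least 1 array. In dTGR against SD control 2 of 14 were at least 2-fold higher and 0 lower (median log2 difference 0.13, against 0.03 over all genes tested, of which 7.69% were higher). This was 1 higher and 1 lower with arrays scaled to the same median, and 1 higher and 0 lower after cyclic loess. In terminal heart failure against SD control 0 of 12 were higher and 1 lower (median -0.15, against -0.14 over all genes, of which 8.40% were at least 2-fold lower). The pathway list of dTGR losartan against dTGR had 0 of 13 higher and 1 lower (median -0.25, against -0.05 over all genes, of which 9.50% were lower). In terminal heart failure against dTGR 0 of 13 were higher and 2 lower, Calcr and Pcsk5 (median -0.32, against -0.18 over all genes, of which 11.8% were lower).

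None of the receptor genes above the floor had the order of Adm over the arrays. Calcrl, the calcitonin receptor-like receptor that binds adrenomedullin, had an intensity of 88.6 in SD control, 75.6 in dTGR, 85.6 in dTGR losartan and 72.9 in terminal heart failure, within 1.22-fold of SD control on each array. Ackr3, a scavenger receptor for chemokines and adrenomedullin, had 353, 329, 229 and 238 in that order, 1.48-fold lower in terminal heart failure than in SD control. Gpr182, an endothelial receptor once proposed to bind adrenomedullin, had 138, 219.6, 125 and 184. None of these 3 receptors reached 2-fold in any of the 6 pairs. Calcr, the calcitonin receptor, was at least 2.25-fold higher in dTGR (58.6) than in SD control, where it lay under the floor as it did on the other 2 arrays. The Calcr bound was 1.99-fold with arrays scaled to the same median and 1.95-fold after cyclic loess, short of the threshold.

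The other endothelin ligands lay near the floor. Edn2 was above it on the dTGR array (31.0) and the terminal array (40.9), and Edn3 on SD control (64.4) and dTGR (39.2). Edn3 was at least 2.48-fold lower in terminal heart failure and in dTGR losartan than in SD control on a probe set whose name marks a sequence family, and the other Edn3 probe set lay under the floor throughout. Among the maturing enzymes Pcsk5, a prohormone convertase, was 2.48-fold higher in dTGR (103) than in SD control (41.4). It was at least 1.55-fold higher with the floor at the 60th percentile, a bound since SD control lay under that floor. By the median of its probe sets it was 1.58-fold higher. Pam by its brightest probe set was 1.67-fold higher in dTGR, 1.30-fold higher in dTGR losartan and 1.31-fold higher in terminal heart failure than in SD control. Mme, the endopeptidase that degrades both peptides, was under the floor on all 4 arrays.

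**Figure D4:**
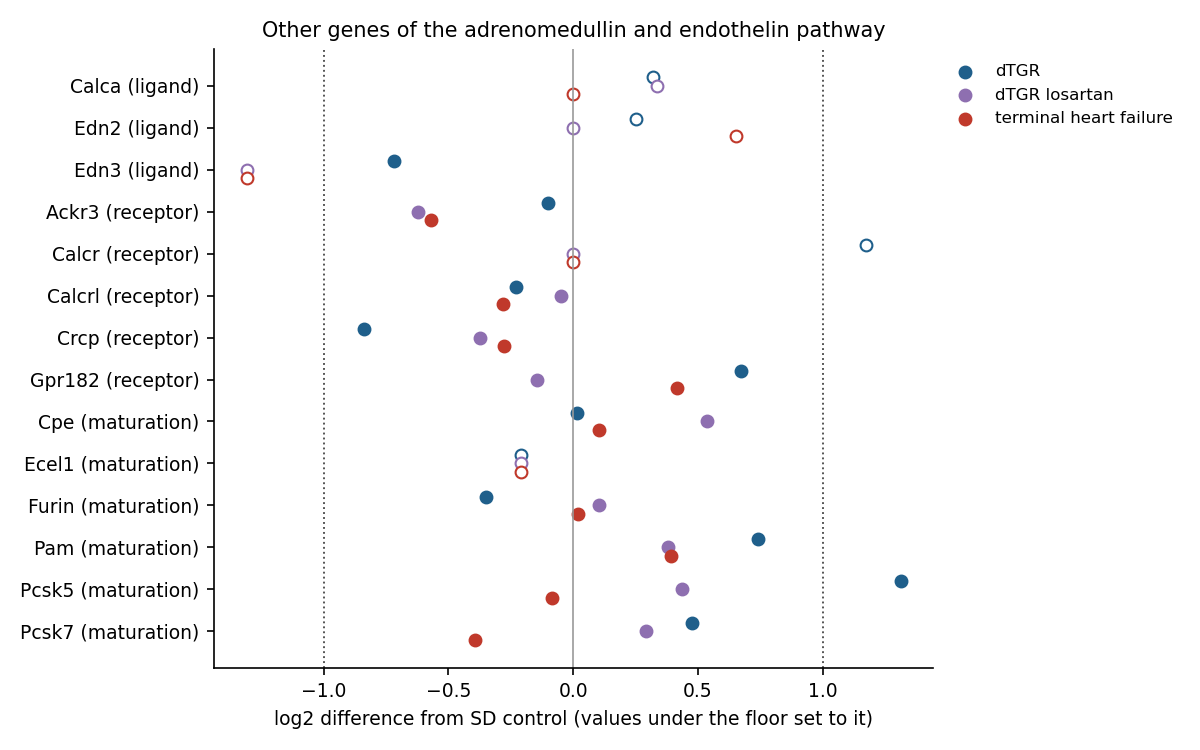
Log2 difference from SD control of the 14 pathway genes above the floor on at least 1 array, by role, for dTGR, dTGR losartan and terminal heart failure; open points have at least 1 value set to the floor and dotted lines mark 2-fold. Calcr and Pcsk5 in dTGR and Edn3 in terminal heart failure and dTGR losartan lie past 2-fold.

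Genes of the signalling steps below the receptors showed no common direction. Of 17 genes of Gs and cyclic AMP signalling, 2 were at least 2-fold higher and 4 lower in terminal heart failure than in SD control (median log2 difference -0.04, against -0.14 over all genes). Over all genes in this pair 6.38% were higher and 8.40% lower. Crem, a cyclic AMP-responsive transcription factor, was 3.68-fold higher at 503 against 137, and Pde4b, which breaks down cyclic AMP, was 2.20-fold higher at 450 against 204. Prkaca, the catalytic subunit of protein kinase A, was 3.72-fold lower at 422 against 1570, and Adcy3, an adenylyl cyclase, was 3.44-fold lower at 40.7 against 140. The lower genes also included Akap1 and Pde4a, and other probe sets of Prkaca, Akap1 and Pde4a did not reach 2-fold in this pair. Of 12 genes of Gq and G12 signalling below the endothelin receptors, 1 was higher and 0 lower (median -0.11), beside the same shares over all genes. The higher gene was Rock2, a kinase that drives contraction downstream of RhoA, at 130 against 53.4 (2.43-fold), with a second probe set at 2.25-fold.

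Adm belongs to the genes known to be induced by low oxygen. For the other genes on that list, the terminal array had a median above that of all genes against dTGR and dTGR losartan. Against SD control their median lay below it, but above it by the median of probe sets (-0.04, against -0.11 over all genes). In terminal heart failure against SD control 3 of 18 hypoxia-regulated genes were at least 2-fold higher and 1 lower (median -0.21, against -0.14 over all genes, of which 6.38% were higher). Against dTGR 2 of 18 were higher and 1 lower (median 0.20, against -0.18 over all genes, of which 7.69% were higher and 11.8% lower). Against dTGR losartan 6 of 18 were higher and 1 lower (median 0.25, against -0.12 over all genes, of which 7.44% were higher), and the higher genes were Slc2a1, Hmox1, Aldoa, Igfbp3, P4ha1 and Flt1. The losartan array was itself low for this list. Against SD control 0 of its 18 genes were higher and 4 lower, Aldoa, Hk1, Pfkl and Flt1. The median was -0.35, against -0.001 over all genes, of which 4.86% were lower. In dTGR, where Adm was intermediate, 1 of 18 was higher than in SD control (Hmox1) and 0 were lower (median -0.12, against 0.03). Over all genes 7.69% were higher in that pair. P4ha1, a collagen prolyl hydroxylase, was 2.33-fold higher in terminal heart failure than in SD control at 492 against 211, beside Slc2a1 (5.94-fold) and Hmox1 (4.62-fold). Tfrc, the transferrin receptor, was 3.53-fold lower at 48.5 against 171. Hif1a, a subunit of the factor itself, had an intensity of 76.9 in SD control, 70.2 in dTGR, 43.5 in dTGR losartan and 47.2 in terminal heart failure. Vegfa, a vessel growth factor of the same list, was 1.35-fold lower in terminal heart failure by its brightest probe set, and its 4 probe sets were all lower.

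The 5 genes with the profile most like that of Adm over the 4 arrays were Dusp6, Lgals3, Ptgds, Lyz2 and Uck2. Likeness was the root mean square distance between log2 profiles, each centred on its own mean over 4 arrays, among 888 genes that were above the floor on all arrays and spanned at least 2-fold. Dusp6, a phosphatase that limits ERK signalling, was closest at 0.05, with intensities of 36.6 in SD control, 79.4 in dTGR, 41.6 in dTGR losartan and 162 in terminal heart failure. Lgals3, which encodes galectin 3 of macrophages, was at 0.10 with 125, 214, 143 and 556. Ptgds, a prostaglandin D2 synthase, was at 0.11, Lyz2, a macrophage lysozyme, at 0.14, and Uck2, a uridine kinase, at 0.15. With 4 arrays such a likeness describes these arrays only.

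**Figure D5:**
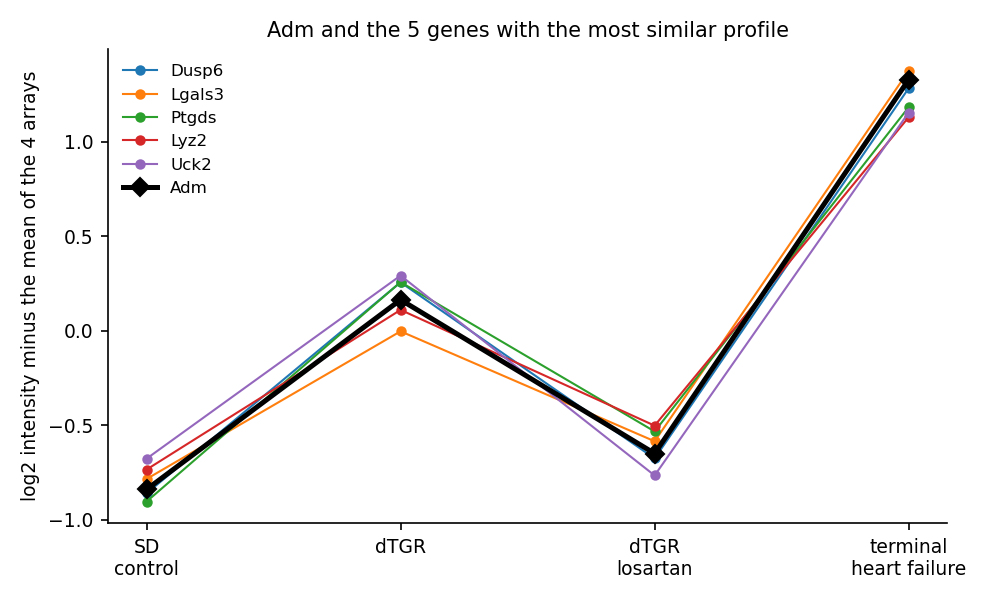
Log2 intensity minus the mean of the 4 arrays for Adm (black) and the 5 genes with the smallest root mean square distance to it, 1 point per array. All 6 genes are highest in terminal heart failure and second highest in dTGR, an order not separate from the choice by likeness.

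Markers of macrophages and leukocytes were mostly higher where Adm was highest. Lgals3 and Lyz2 are among them and were named above for their likeness to Adm, so their order is not separate from that choice. Of 10 such markers on the array, 5 of 8 tested were at least 2-fold higher and 1 (Cd74) lower in terminal heart failure than in SD control (median 1.44, against -0.14 over all genes). Over all genes in this pair 6.38% were higher and 8.40% lower. The summed intensity of the 10 markers was 2892 in SD control, 3573 in dTGR, 3460 in dTGR losartan and 4944 in terminal heart failure. Lgals3 and Lyz2 are among the 5 higher markers and in this sum, so neither is separate from that choice. Lyz2 alone had 583 in SD control, 1047 in dTGR, 685 in dTGR losartan and 2122 in terminal heart failure. Most of the gap in the sum between SD control and terminal heart failure lies in Lyz2. Csf1r and Itgam, also on this list, were under the floor on all 4 arrays and gave no fold. The part of these cells in the Adm values was not tested. Of cardiomyocyte markers, 3 of 9 were at least 2-fold higher in dTGR than in SD control (Tnnt2, Actc1 and Nppa, median 0.92), and 5 of 9 were lower in terminal heart failure than in dTGR (median -1.03). Over all genes 7.69% were higher in the first pair and 11.8% lower in the second. These cardiomyocyte values turned on the scaling. Quantile normalization gave 1 of 9 higher in dTGR (median -0.03) and cyclic loess 1 of 9 (median 0.26), and both gave 0 of 9 lower in terminal heart failure than in dTGR. Of 9 endothelial markers tested in terminal heart failure against SD control, 0 were at least 2-fold higher. In that pair 2 were lower, Kdr and Cav1 (1 under each of 3 other scalings), where 8.40% of all genes were lower. The median was 0.15 against -0.14 over all genes. The summed intensity of the 11 endothelial markers was 1868 in SD control, 1616 in dTGR, 1457 in dTGR losartan and 1240 in terminal heart failure. Without Cav1 the sum of the other 10 was 974 in SD control, 1110 in dTGR, 1057 in dTGR losartan and 1014 in terminal heart failure. Pecam1, an endothelial adhesion molecule, was 1.76-fold higher there and Kdr, a receptor for vascular growth factor, 2.03-fold lower. Of 7 smooth muscle and pericyte markers, 0 were at least 2-fold different in either direction between terminal heart failure and SD control, against 14.8% of all genes.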

How the data were processed

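The deposited table gives linear intensity values, which the authors had brought to a trimmed mean of 200.2 to 200.3 on each array, as the values show. Software and detection calls: not given in the sources used here. Instrument files deposited with each array gave chip lot, run day and fluidics protocol (unit other: settings, no expression). Each array was rescaled to the same trimmed mean (2% left out at each end), values under the 40th percentile were raised to it, and logarithms to base 2 followed. From the 8799 probe sets, 59 controls, 1426 without and 308 with several gene symbols were left out, and 7006 for 4736 genes remained. Symbols come from the platform annotation, 6985 identifiers matched the rat gene table, and 0 symbols changed. The brightest probe set stood for a gene. A gene was called at 2-fold where either array exceeded the floor. A fold with 1 value under the floor is a bound. No test was possible with 1 array per group, and the number of arrays limits the precision. The calling code was run on simulated data with changes larger than 2-fold in bright genes and noise under the probe set SD. Such a run does not test calls near 2-fold or near the floor. Named were the members, list genes past 2-fold in a pair or else up to 4 of a list with the largest difference, and the 5 genes nearest in profile (predicted genes left out); receptors, enzymes and markers given for their role under 2-fold were chosen after their values were seen. The members and lists were chosen with earlier results of these data known. Promoter sequences are from RefSeq (GRCr8). Python 3.11.15, pandas 2.3.3, R 4.3.3 and limma 3.58.1 were used.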

Additional observations from a re-analysis of the deposited data

How the results depend on the processing

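For Adm, each array pair kept its direction under every alternative that gave it a value: 3 other scalings, 2 other floors, no floor with 16 added before log2, the median of probe sets and, added after seeing the data, scaling without the dTGR array, which covers the 3 pairs without dTGR. With the floor at the 60th percentile dTGR losartan against SD control had no value for Adm, since both arrays lay under it. The range was 0.69 to 1.003 for dTGR against SD control and 1.85 to 2.28 for terminal heart failure against SD control. Both lower ends came from the floor at the 60th percentile and are bounds, since SD control lay under that floor. Ece1 moved by more than the probe set SD with the median of its probe sets, to -1.17 for dTGR losartan against SD control and 1.28 for terminal heart failure against dTGR losartan. With its other probe set, an alternative added after seeing the data, Ece1 moved to -0.75 for dTGR against SD control, 0.92 for terminal heart failure against dTGR, -1.07 and -1.82 for dTGR losartan against dTGR and SD control, and 1.997 for terminal heart failure against dTGR losartan. Edn1 rose just above the floor in terminal heart failure with arrays scaled to the same median (26.9 against a floor of 25.9) and under quantile normalization, cyclic loess and scaling without dTGR. The count of genes past 2-fold depended on the floor. For dTGR against SD control it was 490, and 959 or 136 with the floor at the 25th or 60th percentile. For terminal heart failure it was 498 against SD control (805 and 283), 703 against dTGR (1204 and 283) and 503 against dTGR losartan (878 and 278). For dTGR losartan it was 561 against dTGR (1071 and 184) and 241 against SD control (532 and 88). Scaling to the same median moved the median of all genes for dTGR against SD control from 0.03 to -0.19 and the share of higher calls from 56.7% to 29.4%. That share moved from 39.4% to 66.3% for terminal heart failure against dTGR and from 38.3% to 61.2% for dTGR losartan against dTGR. Quantile normalization gave 46.4%, 49.9% and 49.2% for these 3 pairs. Cyclic loess gave 54.4% for terminal heart failure against dTGR, 55.2% against SD control (43.2% as reported) and 42.1% for dTGR losartan against SD control (31.5% as reported). The other 121 values stayed within the probe set SD or within 1.5 times the count. With 1 array per group no array could be left out of its own group. No paired analysis was possible because each group has 1 array.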

Other observations

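Among genes of other vasoactive systems, Ace, the enzyme that makes angiotensin II, had an order like that of Adm. Its intensity was 86.0 in SD control, 128 in dTGR, 95.1 in dTGR losartan and 334 in terminal heart failure, 3.88-fold higher in the terminal array than in SD control. Ptgs2, the inducible cyclooxygenase, was above the floor in terminal heart failure alone (57.5, at least 2.21-fold higher than in SD control). Ptger3, a prostaglandin E2 receptor, was 91.4 in SD control and under the floor in terminal heart failure, at least 3.52-fold lower. Of 16 genes of these systems tested in that pair, 2 were at least 2-fold higher and 2 lower (median -0.14, equal to the median over all genes). Over all genes 6.38% were higher and 8.40% lower.

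Nitric oxide and cyclic GMP genes, the other dilator pathway of the vessel wall, differed in direction between the array pairs under the reported scaling. In dTGR against SD control 3 of 13 were at least 2-fold higher and 0 lower (Pde5a, Npr3 and Nppc; 1 higher and 2 lower with arrays scaled to the same median, 1 higher after quantile normalization or cyclic loess). Over all genes 7.69% were higher in that pair. In dTGR losartan against dTGR 0 of 14 were higher and 2 lower (Pde5a and Npr3), where 9.50% of all genes were lower. This was 1 lower with arrays scaled to the same median or after quantile normalization, and 0 after cyclic loess. Of 9 tested in terminal heart failure against SD control, 0 were at least 2-fold higher and 2 lower (median log2 difference -0.67, against -0.14 over all genes, of which 8.40% were lower). Of 13 tested in terminal heart failure against dTGR, 0 were higher and 5 lower, where 11.8% of all genes were lower. The 5 fell to 2 with arrays scaled to the same median or after cyclic loess, and to 3 after quantile normalization. Cav1, a membrane protein that binds nitric oxide synthase and an endothelial marker, was 894 in SD control, 507 in dTGR, 400.0 in dTGR losartan and 227 in terminal heart failure. Gucy1b1, a subunit of the nitric oxide receptor, was 75.7 in SD control and 33.6 in terminal heart failure. Npr1, the natriuretic peptide receptor, lay between 225 and 234 on all 4 arrays by its brightest probe set, while another probe set was 3.41-fold lower in dTGR than in SD control.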
